A study of Mus musculus with 76 samples.

Results

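Imprinted genes were followed as mouse embryonic stem cells of 2 inbred strains, WSB/EiJ (WSB) and C57BL/6J (B6), were differentiated into neural cells. The genes were taken from a list of 37, matched by symbol to the Ensembl identifiers of the deposited count table, and 35 of the 37 had a column among the 38924 genes of that table. Kcnq1ot1 and Snrpn are not analysed here. By the parental copy they are known to be transcribed from, 12 of the 37 are maternal, 23 paternal and 2 depend on the isoform. The counts do not separate the copies of a gene, so every value below is the total RNA of a gene and says nothing of which copy made it.

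RNA was sequenced from 70 libraries in 16 groups at 3 stages. At the neural progenitor stage the groups were WSB with ID-8, B6 with ID-8, WSB control and B6 control, with 6 libraries each. At the maturation stage the same 4 groups had 4 libraries each. At the axon stage 30 libraries covered both strains with or without ID-8 and with axons cut or left uncut, 3 or 4 libraries a group. ID-8 is an inhibitor of the kinase DYRK1A, and the cut is a mechanical injury to the axons. The labels give no sex, passage or age of the lines. Library totals ran from 20.4 to 131.5 (median 37.4) in units of 1000000 expected counts, and levels are given in counts per 1000000 (CPM). Nothing in the labels says that libraries of a group came from separate differentiations, so p-values measure the spread between these libraries, part of which may be technical. In control cultures the 7 neural progenitor markers summed to 741 to 1296 CPM in WSB and 792 to 1369 CPM in B6 progenitors, and the 7 neuron markers to 1841 to 2916 CPM in WSB and 1871 to 2244 CPM in B6 at maturation. In whole cultures, fewer cells of a type and less RNA per cell cannot be told apart.

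Genomic imprinting is the transcription of a gene from the maternal or the paternal copy alone, set by DNA methylation laid down in the egg or sperm at imprinting control regions. Imprinted genes lie in clusters that share a control region, and many of them act on growth: Igf2 is a growth factor, Igf2r clears it, and Cdkn1c inhibits the cell cycle. In the brain several clusters are active in neurons, among them Dlk1-Dio3, Peg3 and the Prader-Willi region, and imprints are known to be unstable in cultured embryonic stem cells.

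H19 and the maternal transcripts of Dlk1-Dio3 are precursors of microRNAs, which is why 4 of the mature sequences they carry are shown here, from RefSeq on GRCm38.p6, with the seed (bases 2 to 8) in capitals. H19 (chr7:142575529-142578143, minus strand, a long non-coding RNA) carries 2 of them. Mirg (chr12:109729764-109749460, plus strand) carries 26 mature microRNAs with 25 different seeds, and the pair below is the only one that shares a seed. Polyadenylated RNA reports the host transcript and not the mature microRNA.

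miR-675-5p (H19): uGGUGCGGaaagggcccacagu
miR-675-3p (H19): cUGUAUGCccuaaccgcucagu
miR-453 (Mirg): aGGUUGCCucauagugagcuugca
miR-496a-5p (Mirg): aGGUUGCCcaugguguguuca

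Imprinted promoters are often CpG islands. Over RefSeq windows from 250 bases before to 50 after a transcript start, 49 windows of 31 members held a median of 13 CG dinucleotides, against a median of 7 over all 32851 windows. The medians are over windows, so a gene with several starts counts several times. The members here include Kcnq1ot1 and Snrpn, whose levels are not analysed. The oppositely oriented promoters of Peg3 and Usp29 are shown because they overlap within the control region of their cluster. The Peg3 window lies at chr7:6730370-6730669 on the minus strand and holds 13 CG dinucleotides, and the Usp29 window lies at chr7:6730333-6730632 on the plus strand and holds 17, both on GRCm38.p6 and with CG in capitals.

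Peg3: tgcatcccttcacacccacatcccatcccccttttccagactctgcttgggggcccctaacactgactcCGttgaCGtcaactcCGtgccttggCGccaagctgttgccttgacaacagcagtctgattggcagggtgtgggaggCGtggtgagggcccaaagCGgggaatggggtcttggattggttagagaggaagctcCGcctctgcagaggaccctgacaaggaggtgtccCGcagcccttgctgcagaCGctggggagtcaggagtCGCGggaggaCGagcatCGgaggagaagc
Usp29: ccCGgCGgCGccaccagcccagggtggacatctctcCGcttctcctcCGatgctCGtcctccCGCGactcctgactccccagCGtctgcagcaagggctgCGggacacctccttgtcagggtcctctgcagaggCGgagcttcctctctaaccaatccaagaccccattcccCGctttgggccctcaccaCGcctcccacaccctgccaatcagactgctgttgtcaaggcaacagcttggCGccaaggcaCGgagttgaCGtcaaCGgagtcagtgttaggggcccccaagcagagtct

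Peg3, a zinc finger protein, had group means of 377 to 1304 CPM. Usp29, a ubiquitin protease, was at 2.79 to 141 CPM over the libraries. In control progenitors Usp29 was called between the strains and Peg3 was not, and the difference between the 2 genes was not tested.

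In control progenitors H19, Phlda2 and Slc38a4 were lower in WSB, and Ndn, Meg3 and Rian were higher. With 35 members tested, 13 were higher in WSB and 9 lower (edgeR's quasi-likelihood test, Benjamini-Hochberg adjusted p under 0.05), against 20% and 25% of all 17248 genes tested. The median log2 difference was 0.28 over the members and 0 over all genes. By locus, 4 of 6 genes of Dlk1-Dio3, 2 of 3 of the Peg3 cluster and 4 of 5 tested of the Prader-Willi region were higher in WSB with none lower, while H19 and Igf2, and Phlda2 and Ascl2 of the Kcnq1 cluster, were lower. By parental copy the calls were mixed, with 6 higher and 4 lower of 12 maternal genes and 6 higher and 5 lower of 21 paternal genes.

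**Figure D1:**
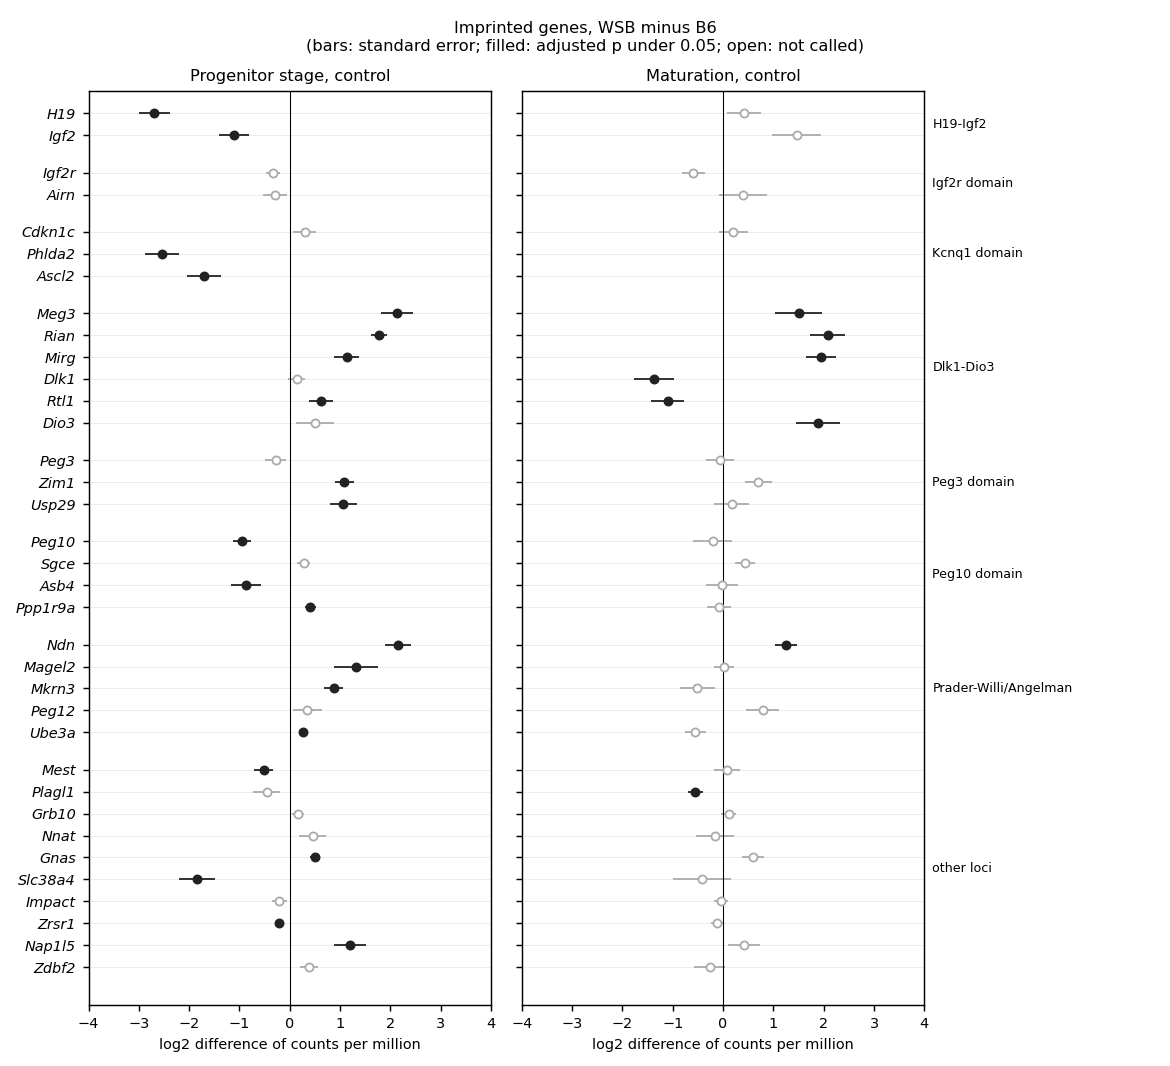
The log2 difference of WSB minus B6 is plotted on the horizontal axis for each imprinted gene, grouped by locus down the page, in control progenitors (left) and control maturation cultures (right); bars are standard errors and filled points passed an adjusted p of 0.05. H19 stands at -2.69 and Ndn at 2.15 in progenitors, and in maturation cultures Rian stands at 2.08 and Dlk1 at -1.38.

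H19, a maternally transcribed RNA that restrains growth, ran from 177 to 392 CPM in WSB control progenitors (median 337), against 926 to 2821 CPM in B6 (median 2357). The groups did not overlap, and the difference was -2.69 ± 0.30 on the log2 scale (SE, adjusted p = 2.86e-07, n = 6 libraries each, edgeR), a level 6.44-fold lower in WSB. Igf2, the paternally transcribed growth factor of the same locus (chr7:142650766-142666816), was at 205 to 456 CPM in WSB (median 403) and 311 to 1086 CPM in B6 (median 857). Its ranges overlapped, and its log2 difference was -1.11 ± 0.30 (adjusted p = 0.00467). Of the 31-base stretches of Igf2, 85.5% are shared with other annotated transcripts, chiefly an overlapping one that is not analysed here, so its counts are uncertain.

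Phlda2, which limits growth of the placenta, was at 1.44 to 3.36 CPM in WSB (median 2.75) and at 5.42 to 27.7 CPM in B6 (median 12.3), without overlap and 5.82-fold lower in WSB (log2 difference -2.54 ± 0.34, adjusted p = 3.19e-06, n = 6 each, edgeR). Ascl2, a transcription factor of the trophoblast, had a log2 difference of -1.70 ± 0.34 and reached at most 1.93 CPM in WSB and 6.36 CPM in B6. Slc38a4, an amino acid transporter on chromosome 15, was at 46.5 to 129 CPM in WSB (median 114) and at 159 to 572 CPM in B6 (median 413), again without overlap, and was 3.59-fold lower in WSB. Peg10, Asb4 and Mest were lower too, at log2 differences of -0.95, -0.87 and -0.52. Cdkn1c, the cell cycle inhibitor next to Phlda2, was not called in control progenitors, with a mean of 469 ± 104 CPM in WSB and 394 ± 96.9 CPM in B6 (SD, n = 6 each).

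At Dlk1-Dio3 on chromosome 12 the maternal RNAs carried the strain difference. Rian, a host of small nucleolar RNAs, was at 203 to 443 CPM in WSB (median 319) and at 50.6 to 201 CPM in B6 (median 79.6). The groups missed each other narrowly, and Rian was 3.42-fold higher in WSB (log2 difference 1.77 ± 0.16, adjusted p = 1.08e-08, n = 6 each, edgeR). Meg3, the first transcript of the maternal string, was at 99 to 504 CPM in WSB (median 346) and at 21.6 to 234 CPM in B6 (median 57.3). Its ranges overlapped, and both strains were higher in the second library series: libraries 1 to 3 held 99, 274 and 155 CPM in WSB and 21.6, 22.3 and 35.9 CPM in B6, while libraries 4 to 6 held 419, 443 and 504 CPM in WSB and 234, 166 and 78.7 CPM in B6. Within each series Meg3 was higher in WSB, by 2.72 ± 0.38 in the first and 1.51 ± 0.39 in the second on the log2 scale. Mirg was higher by 1.13 ± 0.25, while of the paternal genes Rtl1, a retrotransposon-derived protein, was higher by 0.62 at no more than 4.27 CPM, and Dlk1 and Dio3 were not called.

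In the Prader-Willi region on chromosome 7 every called gene was higher in WSB control progenitors. Ndn, which encodes necdin, a protein of postmitotic neurons, was at 222 to 350 CPM in WSB (median 267) and at 43.9 to 86 CPM in B6 (median 62.1). The groups lay far apart, and Ndn was 4.45-fold higher in WSB (log2 difference 2.15 ± 0.26, adjusted p = 1.19e-06, n = 6 each, edgeR). Its neighbours Magel2 and Mkrn3 were higher by 1.31 ± 0.44 and 0.87 ± 0.19 on the log2 scale, and Ube3a, a ubiquitin ligase transcribed from the maternal copy in neurons, by 0.27. Peg12, at the end of the cluster, was not called in control progenitors. In the Peg3 cluster Zim1 and Usp29 were higher by 1.08 ± 0.19 and 1.06 ± 0.27, and Nap1l5, a nucleosome assembly protein of neurons on chromosome 6, was higher by 1.19 ± 0.32.

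Markers of other cell states differed between the same libraries. The summed level of 7 pluripotency markers was 36.2 to 71.8 CPM in WSB control progenitors, against 430 to 1239 CPM in B6, and 7 of 7 were lower in WSB. Of 7 trophoblast markers 6 were lower, with sums of 34.3 to 132 CPM in WSB and 95.4 to 478 CPM in B6. The 7 neuron markers summed to 2372 to 3435 CPM in WSB and to 1155 to 2979 CPM in B6, and 2 of 7 were higher. The part of these cell states in the strain difference of the imprinted genes was not tested. Taken alone, the first library series gave 16 called members, where it called 24.4% of all genes, and the second 9, where it called 16.3%, and H19, Phlda2, Meg3, Rian, Zim1 and Ndn were called in both.

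With ID-8 in both strains, 26 of the 35 members differed between WSB and B6 progenitors, 17 higher and 9 lower in WSB, against 32.7% and 34% of all genes. Of the 22 members called in control cultures 19 were called here too, all 19 in the same direction, which is 86.4% of the first list and 73.1% of the second. This overlap was not counted over all genes. H19 was at 175 to 410 CPM in WSB and 2011 to 3847 CPM in B6, and Igf2 at 170 to 587 CPM in WSB and 1025 to 2098 CPM in B6. Neither gene overlapped between the strains, and their log2 differences were -3.29 ± 0.31 and -1.90 ± 0.30. Magel2 and Nap1l5 stood 2.73 ± 0.47 and 2.42 ± 0.34 higher in WSB, Nnat, which encodes the small membrane protein neuronatin, 1.48 ± 0.27, and Peg12 1.18 ± 0.30. Cell markers differed in these libraries too, with 7 of 7 neuron and 4 of 7 neural progenitor genes higher in WSB. Lower in WSB were 7 of 7 trophoblast, 6 of 7 endoderm, 6 of 7 pluripotency and 6 of 8 fibroblast or mesenchyme genes. The part of these markers in the strain difference was not tested.

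At maturation all 6 genes of Dlk1-Dio3 differed between the strains in control cultures. Of 33 members tested 5 were higher in WSB control cultures and 3 lower, against 7.38% and 7.39% of all 16954 genes, and the other 2 of the 8 were Ndn, higher, and Plagl1, lower. Leaving out 1 library gave 4 to 8 calls. With 4 libraries a group in place of 6 these counts cannot be set against those of progenitors. The same holds for members whose strain ranges did not overlap, 12 here and 6 in progenitors. Smaller groups separate more easily, and such ranges were not counted over all genes. Phlda2 and Ascl2 were too low at this stage to be tested.

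**Figure D2:**
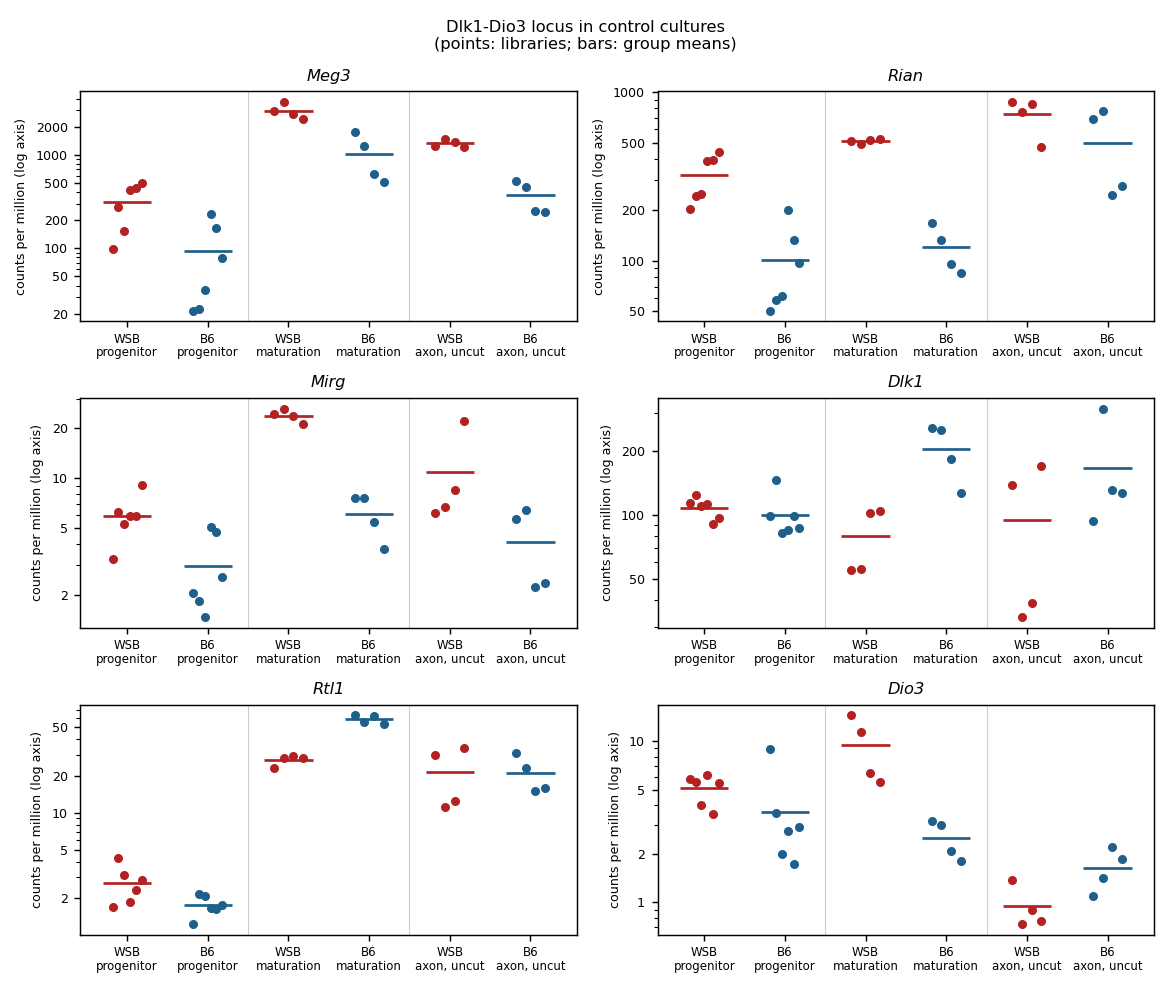
Each panel plots 1 gene of the Dlk1-Dio3 cluster in CPM on a log axis, for WSB (red) and B6 (blue) control cultures at the progenitor, maturation and uncut axon stages; points are libraries and bars group means. At maturation Rian lies at 489 to 530 CPM in WSB and 84.3 to 167 CPM in B6, while Rtl1 lies at 23.4 to 29.4 CPM in WSB and 53.3 to 62.7 CPM in B6.

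The maternal RNAs of the cluster were higher in WSB. Rian was at 515, 489, 519 and 530 CPM in WSB control maturation cultures, against 167, 133, 95.6 and 84.3 CPM in B6, and was 4.24-fold higher in WSB (log2 difference 2.08 ± 0.35, adjusted p = 8.09e-04, n = 4 each, edgeR). Meg3 was at 2955, 3701, 2720 and 2400 CPM in WSB and at 1756, 1232, 621 and 507 CPM in B6 (log2 difference 1.5 ± 0.47, adjusted p = 0.0418, edgeR). All WSB libraries lay above all B6 libraries for both, and B6 libraries 1 and 2 lay above B6 libraries 3 and 4, which are named apart. Libraries of this stage that share such a name are called a culture experiment here, though the names do not say what they share. Mirg, at 21.1 to 26.1 CPM in WSB and 3.77 to 7.62 CPM in B6, was higher by 1.95 ± 0.30.

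The paternal, protein-coding genes of the cluster did not move together. Dlk1, a membrane protein related to Notch ligands, was at 55.3, 55.6, 102.7 and 104.5 CPM in WSB and at 257, 250, 183 and 127 CPM in B6, a log2 difference of -1.38 ± 0.40 (adjusted p = 0.0309, edgeR). Rtl1 was at 23.4, 27.9, 29.4 and 28.1 CPM in WSB and at 62.7, 55.1, 62.0 and 53.3 CPM in B6, a log2 difference of -1.10 ± 0.33, which is opposite to its difference in progenitors. Dio3, which inactivates thyroid hormone and lies at the far end of the cluster, was at 14.4, 11.3, 6.31 and 5.54 CPM in WSB and at 3.19, 3.00, 2.09 and 1.79 CPM in B6, higher in WSB by 1.89 ± 0.44 (adjusted p = 0.00901, edgeR). None of these 3 genes overlapped between the strains. For Dlk1 the log2 difference was -2.20 within the first culture experiment and -0.60 within the second, where it was not called (adjusted p = 0.0649).

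Outside the cluster, Ndn was at 290, 272, 316 and 335 CPM in WSB control maturation cultures and at 146.5, 138.2, 108.3 and 114.8 CPM in B6, higher in WSB by 1.25 ± 0.22 (adjusted p = 0.00121, n = 4 each, edgeR). Plagl1, a zinc finger regulator of growth, was lower, at a log2 difference of -0.55. H19 was at 95, 67.7, 78.4 and 78.9 CPM in WSB and at 48.6, 57.4, 71.4 and 63.1 CPM in B6, and was not called. Igf2 was at 474, 415, 182 and 221 CPM in WSB and at 75.0, 103, 152 and 141 CPM in B6. Its ranges did not overlap but its log2 difference of 1.46 ± 0.49 missed the threshold (adjusted p = 0.0562). With the culture experiment as a block it was called at 1.18 ± 0.37 (adjusted p = 0.0286, edgeR), and the count of members called was 13 in place of 8, where that fit called 27.2% of all genes. The 8 markers of fibroblasts or mesenchyme, cells in which Igf2 is abundant, summed to 1523 to 3992 CPM in WSB and 474 to 880 CPM in B6, with 5 of 8 higher in WSB, and their part in the Igf2 difference was not tested. With ID-8 in both strains 7 members were higher in WSB and 3 lower, against 9.28% and 7.97% of all genes, and H19, Igf2 and Slc38a4 were among the 7, at log2 differences of 1.40, 1.95 and 2.09.

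From the progenitor to the maturation stage Cdkn1c, Slc38a4, Peg12 and Mest fell and Nap1l5, Impact, Meg3 and Rtl1 rose in both strains. In WSB control cultures 10 members were higher at maturation and 14 lower, against 37.8% and 34.5% of all 17987 genes. In B6 control cultures 11 were higher and 13 lower, against 36% and 35%. The members' shares were close to those of all genes. Markers of other cells moved too: 6 of 6 astrocyte genes were higher at maturation in each strain. Their median sums were 4142 CPM at maturation against 57 CPM in progenitors in WSB, and 2307 CPM against 59.5 CPM in B6. Of 8 fibroblast or mesenchyme genes 7 were higher in WSB and 6 in B6. Of 7 neuron genes 1 was higher and 3 lower at maturation in WSB, and 2 were higher and 2 lower in B6. Of 7 neural progenitor genes 1 was higher in each strain, with 5 lower in WSB and 4 in B6. The part of all these markers in the change of the imprinted genes was not tested. Each strain called 24 members, 18 of them shared (75% of each list), 7 higher and 11 lower, with none in opposite directions. This overlap was not counted over all genes. Maturation libraries belong to another library series than progenitor libraries, so stage and library preparation cannot be told apart. With the series as a covariate 17 members were called in each strain, and no share of all genes is given for that fit. That adjustment rests on 1 WSB axon library, control uncut library 4, which itself stood apart from its group for several members.

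**Figure D3:**
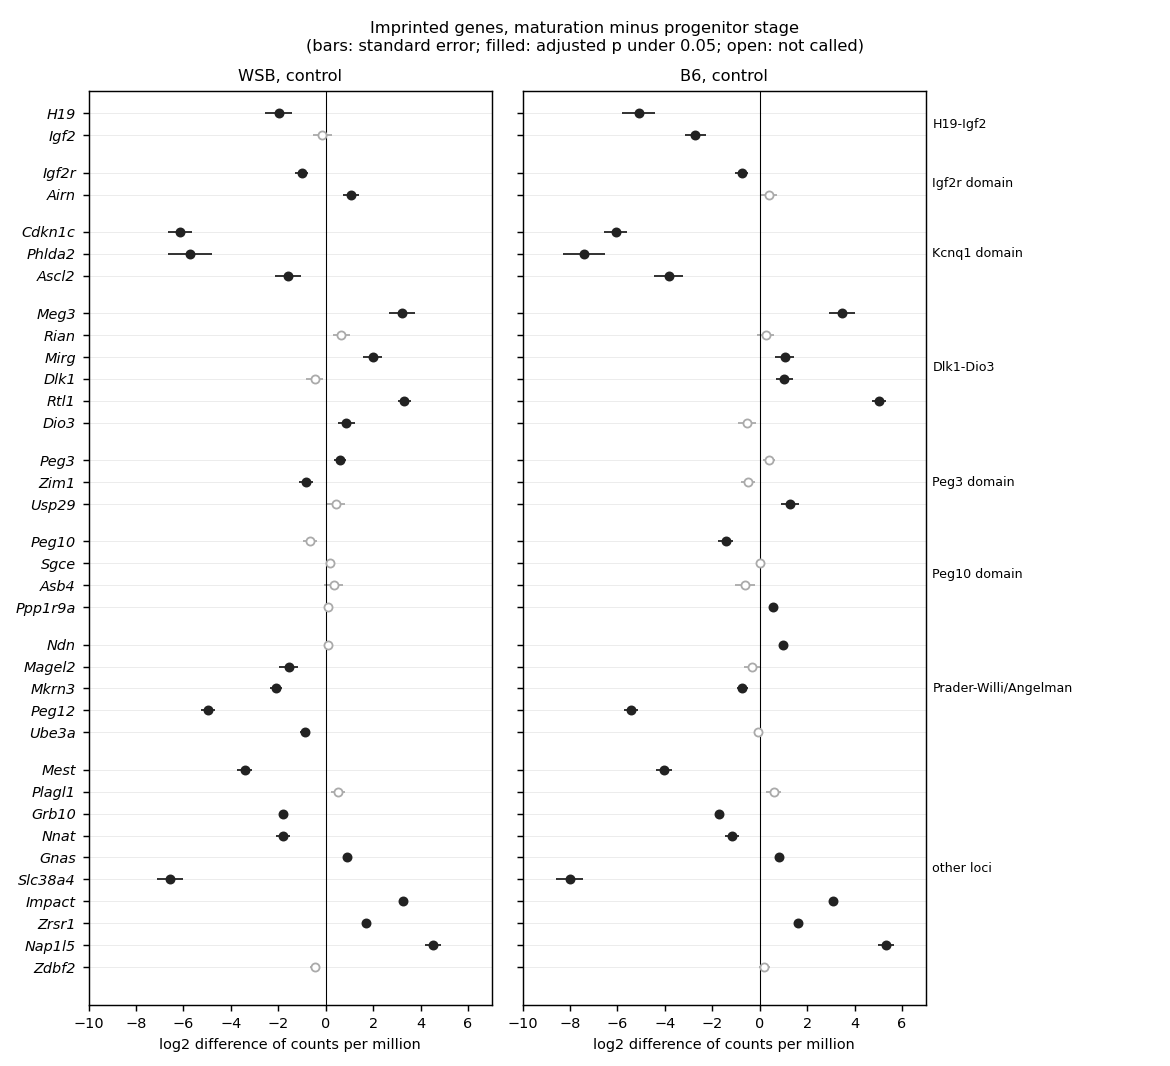
The log2 difference of maturation minus progenitor control cultures is plotted on the horizontal axis for each imprinted gene, grouped by locus, in WSB (left) and B6 (right); bars are standard errors and filled points passed an adjusted p of 0.05. Cdkn1c stands at -6.14 in WSB and -6.08 in B6, Nap1l5 at 4.53 in WSB and 5.32 in B6, and H19 at -1.98 in WSB and -5.10 in B6.

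Among the genes that fell, Cdkn1c was at 8.29, 7.83, 5.21 and 5.67 CPM in WSB maturation cultures, against 381 to 665 CPM in WSB progenitors, and at 5.67, 7.47, 5.50 and 4.77 CPM in B6 maturation cultures, against 271 to 518 CPM in B6 progenitors. The stages were far apart in both strains (log2 difference -6.14 ± 0.50 in WSB and -6.08 ± 0.50 in B6, adjusted p = 3.32e-11 and 4.17e-11, edgeR). Slc38a4 was at 0.874 to 1.40 CPM in WSB and 0.530 to 2.62 CPM in B6 at maturation, against 46.5 to 129 CPM in WSB and 159 to 572 CPM in B6 progenitors, 94.4-fold lower in WSB and 257-fold lower in B6. Peg12, a GSK3-binding protein, was 31.4-fold lower in WSB and 43.3-fold lower in B6, and Mest, a hydrolase of mesoderm and neural precursors, 10.6-fold and 16.4-fold. Grb10, an adaptor that restrains growth factor receptors, was 3.44-fold lower in WSB and 3.30-fold lower in B6.

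Phlda2 was at 0 CPM in 2 of 4 WSB and 2 of 4 B6 control maturation libraries and at most at 0.151 CPM in WSB and 0.219 CPM in B6, so no fold is given. A count of 0 allows up to 0.0894 to 0.101 CPM in these 4 libraries (3 counts of the total, counting error only).

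Among the genes that rose, Nap1l5 was at 722, 777, 818 and 839 CPM in WSB maturation cultures, against 21.9 to 55.7 CPM in WSB progenitors, and at 705, 680, 524 and 449 CPM in B6 maturation cultures, against 8.53 to 33.0 CPM in B6 progenitors. It was 23.2-fold higher in WSB and 39.8-fold higher in B6 (adjusted p = 3.91e-12 and 4.13e-13, edgeR). Per kilobase of exon its mean at maturation was 428 CPM in WSB and 320 CPM in B6, the highest of the members in either strain. Impact, a regulator of translation in neurons, was 9.55-fold higher in WSB and 8.49-fold in B6, and Meg3 9.21-fold and 11.0-fold. Rtl1 was 9.92-fold higher in WSB and 32.5-fold in B6. Zrsr1 was called higher in both strains too. At maturation it was at 56.3 to 76.7 CPM in WSB and 63.2 to 82.2 CPM in B6 control cultures. In control progenitors it was at 17.4 to 21.3 CPM in WSB and 20.9 to 24.5 CPM in B6. Mirg was called higher in both strains but had log2 differences of -0.08 in WSB and -0.91 in B6 when the library series was a covariate. That covariate rests on WSB control uncut axon library 4 alone, where Mirg stood apart at 22.1 CPM.

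The size of the change differed between the strains for 7 members, 2 with a higher change in WSB and 5 with a lower one, against 8.88% and 6.24% of all genes. H19 had a log2 change of -1.98 ± 0.58 in WSB and -5.10 ± 0.69 in B6, a difference of 3.12 ± 0.78 (adjusted p = 0.00873, edgeR). Igf2 changed by -2.72 ± 0.44 in B6 and was not called in WSB (-0.14 ± 0.39), a difference of 2.58 ± 0.57 (adjusted p = 0.00314). Rtl1, Mkrn3, Dlk1, Ndn and Ube3a differed the other way, by -1.71, -1.37, -1.5, -0.90 and -0.81. Pluripotency and trophoblast markers were lower at maturation in both strains, 7 of 7 and 6 of 7 in each. The pluripotency genes had a median log2 difference of -5.42 in WSB and -10.01 in B6, and the trophoblast genes of -6.27 in WSB and -6.14 in B6. The part of these cells in the changes of H19 and Igf2 was not tested.

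At the uncut axon stage 13 members were higher than in WSB progenitors and 10 lower, against 31.4% and 31.5% of all genes, and 18 higher and 11 lower in B6, against 32.1% and 34.2%. The median log2 difference over the members was 0.37 in WSB and 0.77 in B6, against 0 and -0.05 over all genes. In both strains 13 members rose and 9 fell, which is 95.7% of the WSB list and 75.9% of the B6 list. This overlap was not counted over all genes. Against the progenitor libraries of the series that the axon libraries share, 22 members were called in WSB and 27 in B6, and no share of all genes is given for that fit. Astrocyte genes were higher than in progenitors, 6 of 6 in each strain, as were 7 of 8 fibroblast or mesenchyme genes in each, 4 of 7 neuron genes in WSB and 7 of 7 in B6, and 5 of 5 oligodendrocyte genes in WSB and 1 of 5 in B6. Their part in the change of the imprinted genes was not tested. Nnat was called lower at maturation and higher here. Its control libraries were at 509 to 774 CPM in progenitors, 149 to 205 CPM at maturation and 594 to 1619 CPM at the uncut axon stage in WSB, and at 288 to 681, 107.3 to 284 and 1063 to 2325 CPM at the same stages in B6. It was higher at the axon stage than in progenitors by 0.87 ± 0.28 in WSB and 1.87 ± 0.28 in B6, and per kilobase it was the member with the highest mean, 630 CPM in WSB and 873 CPM in B6. Dio3 was lower at the axon stage, at log2 differences of -2.49 ± 0.42 in WSB and -1.15 ± 0.39 in B6. Cdkn1c, Slc38a4 and Peg12 had log2 differences of -4.06, -4.39 and -3.30 in WSB and -3.80, -5.01 and -4.28 in B6.

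By their sample names the axon libraries fell into 4 WSB and 4 B6 sets, called culture sets here. The names do not say what the libraries of a set share. Several members were at different levels in different sets. H19 was at 51.0 to 82.4 CPM in the 4 libraries of WSB set I, 354 to 565 CPM in set 2, 244 to 1462 CPM in set 3 and 1155 to 5938 CPM in set AD 11_3. The B6 sets lay between 583 and 1311 CPM. So the lowest and the highest H19 levels of the stage were both in WSB. Igf2 was at 77.6 to 117.4 CPM in set I, against 389 to 1177 CPM in the other WSB sets and 394 to 1822 CPM in B6. Fibroblast or mesenchyme markers summed to 51.6 to 73.2 CPM in set I and to 1451 to 7240 CPM in the other 7 sets, and neuron markers to 5277 to 6139 CPM in set I and 2082 to 5840 CPM in the others, and their part in the H19 and Igf2 levels was not tested.

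**Figure D4:**
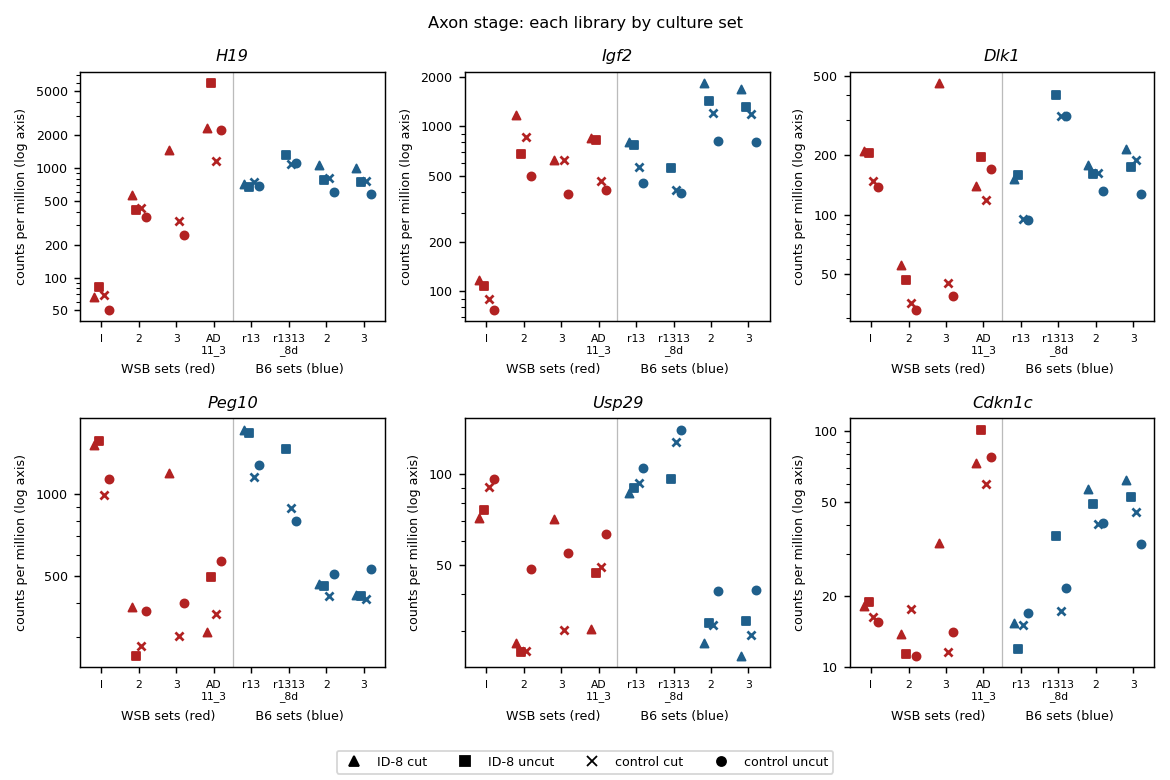
Each panel plots 1 imprinted gene in CPM on a log axis in every axon library, by culture set, with 4 WSB sets (red) left of 4 B6 sets (blue); the marker shape gives the treatment. H19 is at 51.0 to 82.4 CPM in WSB set I and at 1155 to 5938 CPM in WSB set AD 11_3, and in both strains Peg10 is higher in some sets than in others.

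Over the axon libraries 4 members were higher in WSB than in B6 and 10 lower, against 19.6% and 22.3% of all 18106 genes. The library series is a term in that fit, and WSB set AD 11_3 alone makes up its second series, so the contrast rests on the other 3 WSB sets. H19 had a log2 difference of -1.37 ± 0.42 with the series and of 0.14 ± 0.52, not called, without it. With 1 summed library per set, 4 against 4, 2 members were called in place of 14, both higher in WSB, where that fit called 3.58% of all genes. These were Meg3 at 1.54 ± 0.24 (adjusted p = 0.0144, edgeR) and Peg12 at 1.24 ± 0.23 (adjusted p = 0.0254). Peg12 was at 4.56 to 12.2 CPM in the WSB axon libraries and at 2.24 to 3.75 CPM in B6, the 1 member of 35 whose strain ranges did not overlap. Such ranges were not counted over all genes. Meg3 was at 413 to 1497 CPM in WSB and at 214 to 520 CPM in B6. Of the markers of other cells, 6 of 6 tested trophoblast, 5 of 7 endoderm and 4 of 8 fibroblast or mesenchyme genes were lower in WSB at this stage, and 6 of 6 astrocyte, 5 of 7 neural progenitor and 3 of 5 oligodendrocyte genes were higher. Astrocyte markers summed to 1558 to 1651 CPM in WSB set I and to 3405 to 17115 CPM in the other WSB sets, against 1450 to 3133 CPM in B6, and the part of all these markers in the strain difference was not tested.

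ID-8 moved more members in B6 than in WSB progenitors, though the difference between the strains was not called for any. In B6 progenitors 7 members were higher with ID-8 and 11 lower, against 18.4% and 22% of all genes, and in WSB progenitors 1 was higher and 4 lower, against 4.71% and 4.86%. The test of the difference called 0 of 35 members (edgeR, 8 at an unadjusted p under 0.05), where it called 3.19% of all genes, and DESeq2 called 0. No share of all genes is given for the unadjusted p or for DESeq2. Mest was higher in both strains, by 0.76 ± 0.19 in WSB and 0.75 ± 0.19 in B6, and Ube3a was lower in both.

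In B6 progenitors the genes lower with ID-8 included Usp29, Magel2, Nnat and Nap1l5, at log2 differences of -1.40 ± 0.28, -1.34 ± 0.45, -1.22 ± 0.27 and -1.13 ± 0.33. Nnat was at 55.6 to 279 CPM with ID-8 (median 210), against 288 to 681 CPM in control (median 412), and the groups did not overlap (adjusted p = 0.00149, n = 6 each, edgeR). Asb4, a gene of the Peg10 cluster that is abundant in the hypothalamus, was higher by 1.15 ± 0.29, and Igf2 by 0.91 ± 0.30. Igf2 was at 1025 to 2098 CPM with ID-8 and 311 to 1086 CPM in control. In the same libraries the 7 endoderm markers summed to 44.7 to 342 CPM with ID-8, against 22.3 to 37.0 CPM in control, pluripotency markers to 982 to 2493 CPM, against 430 to 1239 CPM, and neuron markers to 273 to 1716 CPM, against 1155 to 2979 CPM. Fibroblast or mesenchyme markers, 7 of 8 of them higher, summed to 227 to 650 CPM with ID-8, against 96.8 to 212 CPM in control, while 3 of 4 choroid plexus genes were higher and 4 of 7 trophoblast genes lower. In WSB progenitors 7 of 7 pluripotency markers were higher with ID-8, summing to 83.7 to 436 CPM, against 36.2 to 71.8 CPM in control. Their part in the change of the imprinted genes was not tested. In B6, 3 members were called within the first library series alone and 7 within the second, where those fits called 7.98% and 22.7% of all genes. In WSB, 0 were called within either series (edgeR), where 0.961% and 0.0117% of all genes were called.

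In maturation cultures Asb4 and Nnat were higher and Cdkn1c and Plagl1 lower with ID-8 in each strain. In WSB 3 members were higher and 2 lower, against 2.86% and 3.03% of all genes, and in B6 3 were higher and 2 lower, against 7.71% and 9.41%. Those 4 genes made up 4 of 5 calls in each strain, with H19 the fifth in WSB and Gnas the fifth in B6, and the difference in response between the strains was not tested at this stage. Leaving out 1 library gave 1 to 3 calls in WSB and 2 to 5 in B6. Oligodendrocyte markers summed to 86.3 to 99.7 CPM with ID-8 in WSB, against 37.9 to 51.7 CPM in control, and to 148 to 281 CPM with ID-8 in B6, against 19.5 to 34.8 CPM in control, with 1 of 4 genes higher in WSB and 3 of 4 in B6. Neural progenitor markers in B6 had a median sum of 1606 CPM with ID-8, against 826 CPM in control, with 2 of 6 genes higher and 1 lower, and 2 of 4 choroid plexus genes were lower in WSB. Their part in the change of the imprinted genes was not tested.

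**Figure D5:**
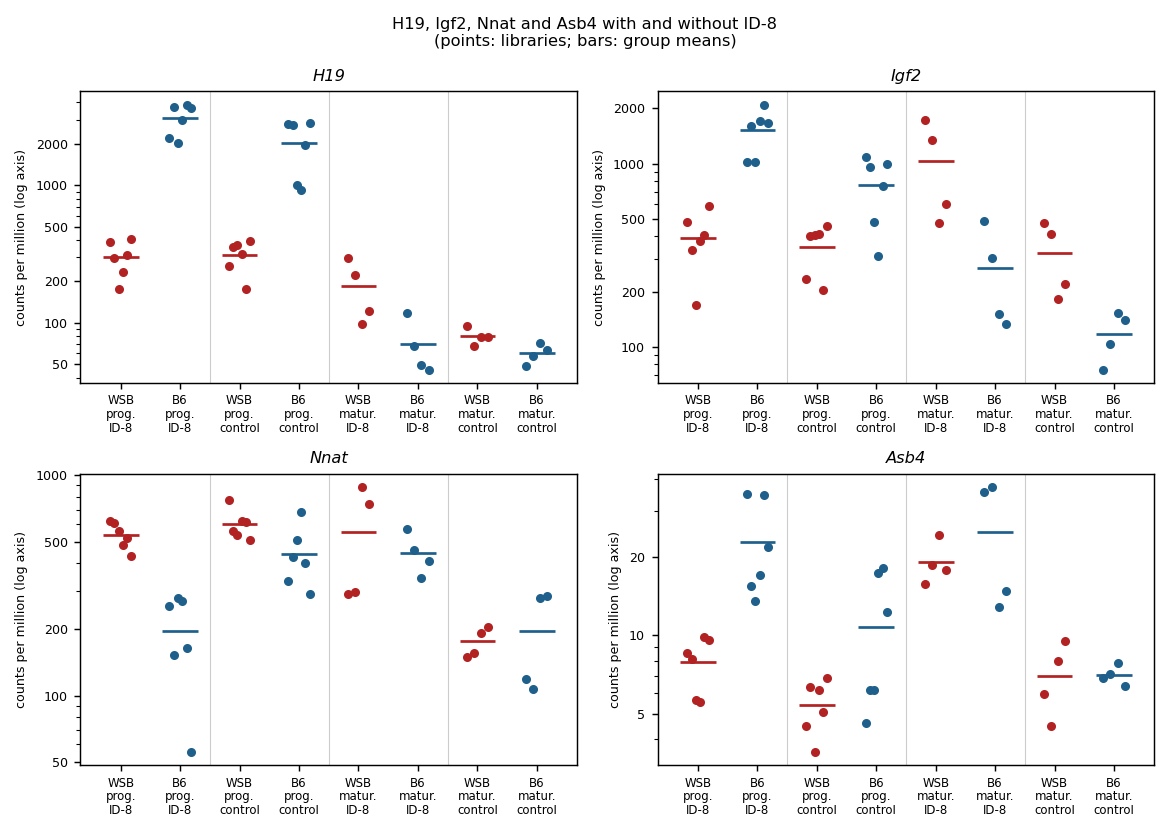
Each panel plots 1 gene in CPM on a log axis in progenitor and maturation cultures of WSB (red) and B6 (blue) with ID-8 and in control; points are libraries and bars group means. In B6 progenitors with ID-8, Nnat lies at 55.6 to 279 CPM and control at 288 to 681 CPM, whereas in B6 maturation cultures ID-8 lies at 341 to 573 CPM and control at 107.3 to 284 CPM.

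Asb4 was at 15.8, 18.6, 24.2 and 17.8 CPM with ID-8 in WSB maturation cultures, against 5.97, 4.5, 7.99 and 9.52 CPM in WSB control, and at 35.4, 37.2, 12.8 and 14.8 CPM with ID-8 in B6, against 6.87, 7.09, 7.80 and 6.39 CPM in B6 control. No ID-8 library overlapped its control, and the log2 differences were 1.44 ± 0.32 in WSB and 1.82 ± 0.32 in B6 (adjusted p = 0.0157 and 0.00144, n = 4 each, edgeR). Nnat was at 289, 297, 887 and 739 CPM with ID-8 in WSB, against 149, 157, 193 and 205 CPM in WSB control, and at 573, 460, 341 and 409 CPM with ID-8 in B6, against 118.7, 107.3, 278 and 284 CPM in B6 control. It was higher by 1.64 ± 0.38 in WSB and 1.17 ± 0.38 in B6, the opposite of its difference in B6 progenitors. Cdkn1c was at 4.51, 3.31, 2.00 and 2.89 CPM with ID-8 in WSB, against 8.29, 7.83, 5.21 and 5.67 CPM in WSB control, a log2 difference of -1.09 ± 0.29, and it was -0.94 ± 0.29 in B6. H19 in WSB was at 295, 224, 98.6 and 122 CPM with ID-8, against 95, 67.7, 78.4 and 78.9 CPM in control, higher by 1.21 ± 0.34 (adjusted p = 0.0487, edgeR). Within the culture experiments the rise of Nnat was 0.91 and 2.04 in WSB and 2.17 and 0.40 in B6. H19 in B6, not called over both experiments, had log2 differences of 0.80, not called, in the first and -0.52 in the second. With the experiment as a block 8 members were called in WSB and 10 in B6, where those fits called 14.2% and 28.4% of all genes.

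At the axon stage edgeR called 0 members for ID-8 in either strain, where it called 0.376% of all genes in WSB and 0.353% in B6. At an unadjusted p under 0.05 there were 6 in WSB and 4 in B6, and DESeq2 called 1 in each. These counts are given without a share of all genes, so they are no result about the members. With the culture set as a block, a fit chosen after seeing the data, 8 were called in each strain, where it called 8.97% of all genes in WSB and 8.47% in B6. Igf2, Nap1l5, Nnat and Dio3 were called in each. Nnat was higher with ID-8 by 0.72 ± 0.13 in WSB (adjusted p = 0.00158, edgeR) and 0.76 ± 0.13 in B6 (adjusted p = 9.12e-04), and Dio3 by 1.36 in WSB and 1.23 in B6. Dio3 was at 0.715 to 5.91 CPM with ID-8 and 0.296 to 2.23 CPM in control in WSB, and at 2.18 to 6.36 CPM with ID-8 and 1.09 to 2.21 CPM in control in B6. Meg3 had a log2 difference of -0.67 ± 0.12 in WSB. Leaving out 1 WSB library that stood apart (ID-8 cut, library 3, with 460 CPM of Dlk1 where the other WSB libraries had 33.2 to 210 CPM) gave 12 called members in WSB, where 12.9% of all genes were called, and H19, called at 1.00 before, was no longer called.

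Cutting the axons gave 0 called members in WSB and 0 in B6 by edgeR, where the test called 0% of all genes in either strain. At an unadjusted p under 0.05 there was 1 in WSB, Airn, and 0 in B6, and DESeq2 called 0 in each. Neither count is given over all genes. The culture set as a block left both counts at 0, where it called 0.53% of all genes in WSB and 0% in B6. With that block and without the library that stood apart, a fit chosen after seeing the data, 7 members and 5.38% of all genes were called in WSB, with log2 differences of -0.51 ± 0.12 for Meg3 and -0.45 ± 0.09 for Nap1l5.

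Between libraries of 1 group the median imprinted gene was more spread than the median gene. The median SD of log2 CPM within groups over the 31 members with a mean of at least 5 CPM was 0.34 in WSB and 0.54 in B6 progenitors, against 0.22 and 0.29 over 12517 genes at that level. At maturation it was 0.36 in WSB and 0.41 in B6, against 0.24 and 0.29, and at the axon stage 0.56 in WSB and 0.59 in B6, against 0.41 and 0.22. The widest were H19 at the axon stage in WSB with an SD of 2.30, Igf2 there with 1.44, and Meg3 in B6 progenitors with 1.33. Gnas, which encodes a G protein subunit, was among the steadiest, with an SD of 0.10 at the axon stage in B6. Each SD was taken around group means, so it includes differences between library series, culture sets and culture experiments within a group. The part of such differences in the spread was not tested. These values are descriptions of the libraries and were not tested.

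Factors that set, read, maintain or remove imprints or DNA methylation were mostly lower at maturation than in progenitors. Of 16 such genes, 16 were lower in WSB and 14 in B6, with none higher, against 34.5% and 35% of all genes. At the axon stage 2 were higher and 10 lower than in WSB progenitors, against 31.4% and 31.5% of all genes. In B6 1 was higher and 13 lower than in progenitors, against 32.1% and 34.2%. Dnmt3a, a de novo methyltransferase, was higher by 0.66 ± 0.13 in WSB and 0.51 ± 0.13 in B6. Dnmt1, the maintenance DNA methyltransferase, had log2 differences of -2.47 ± 0.21 in WSB and -2.44 ± 0.21 in B6, and Trim28, the corepressor of zinc finger proteins that bind imprinting control regions, of -2.39 ± 0.14 in WSB and -2.80 ± 0.14 in B6. Between the strains 6 of 16 were lower in WSB control progenitors and none higher, against 25% and 20% of all genes. Among them were Dnmt3l at a log2 difference of -3.89 ± 0.42 and Dppa3 at -4.05 ± 0.36, both also genes of pluripotent and germ cells. The others were Dnmt3b at -1.67 ± 0.30, Tet1 at -0.79 ± 0.28, Uhrf1 at -0.68 ± 0.20 and Trim28 at -0.33 ± 0.07. Dnmt1 and Zfp57 were not called between the strains in control progenitors or control maturation cultures, and with ID-8 Zfp57 was lower in WSB progenitors, at -1.11. Of 11 neighbours of Igf2 in growth signalling, 3 were higher and 7 lower at maturation in each strain, against 37.8% and 34.5% of all genes in WSB and 36% and 35% in B6, and Igf2bp1, an RNA-binding protein that binds Igf2 and H19, had log2 differences of -6.56 ± 0.53 in WSB and -6.78 ± 0.54 in B6. Of 45 further imprinted genes, 37 were tested in control progenitors, with 6 higher and 10 lower in WSB, near the 20% and 25% of all genes, and Pon3 stood lowest, at -4.68 ± 0.43. At maturation 3 of 35 were higher and 1 lower, against 7.38% and 7.39% of all genes, the lower one again Pon3.

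Of the remaining members, Sgce, Zdbf2, Grb10, Impact and Airn were not called between the strains in control progenitors or control maturation cultures. Airn, the antisense RNA that silences Igf2r, averaged 1.22 to 4.19 CPM over the groups. Igf2r was lower in WSB than in B6 with ID-8 in progenitors, at a log2 difference of -0.85 ± 0.14. Gnas, at group means of 702 to 2397 CPM, was higher in WSB control progenitors by 0.51. Stretches of 31 bases shared with other transcripts make up 40.8% of Gnas, 31.3% of Cdkn1c, 26.7% of Ube3a, 24.3% of Mest and 23.8% of Usp29, partly with antisense genes, and the counting is not stated to use strand. For 20 members the share was 1% or less.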

How the data were processed

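Expected counts per gene, which need not be whole, were deposited as one table for 76 sequenced samples. Per the submitters' processing notes Bowtie2, RSEM, featureCounts and limma were used with GRCm38; their order and versions, and the use of strand in counting, are not given in the sources used here. Per the labels' protocols the libraries were stranded and made from polyadenylated RNA. GRCm38 derives from C57BL/6J, and the effect of WSB variants on counting was not tested.

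Repeat runs of 6 libraries were summed, giving 70 libraries of 20.4 to 131.5 (in units of 1000000 counts), with 18643 to 21389 genes detected. The deposited expected counts, 9.32% of them not whole, were rounded. CPM is per 1000000 of the library total scaled by its TMM factor, which ran from 0.8235 to 1.147. Each stage was fitted on all genes with edgeR 4.0.16 in R 4.3.3 (filterByExpr, TMM, robust quasi-likelihood test, Benjamini-Hochberg adjusted p under 0.05), with the library series as a term for progenitor and axon libraries. Stages were compared over control libraries. The SE is the log2 difference divided by the root of the F statistic. DESeq2 1.42.0, other size factors, no filter, first runs alone, no library series and each replicate left out were alternatives. Blocks, splits and sums by the culture sets and experiments read from the sample names, and fits without sets or libraries that stood apart, were chosen after seeing the data. The scripts were tested on simulated data.

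Replicate numbers of the first progenitor series paired libraries within a strain (3 of 3 pairs correlated over 0.1 in each), and 14 of 18 pairs did over all groups. Axon libraries of a set paired in 21 of 21 pairs in B6 and 19 of 21 in WSB. Maturation libraries of a culture experiment paired in 40 of 48 pairs over all groups. The main fits hold no term for the culture set or experiment, so their p-values treat such libraries as separate.

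Members and gene lists were chosen with earlier results of these data known. A member is named if it passed the threshold with a log2 difference of at least 1 in a strain or stage comparison of control cultures and reached 5 CPM in a group mean: 26 members. The other 9 are named where a count or a list calls for it. A count of 0 is given with the level that 3 counts would have, and such limits cover counting error only.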

Additional observations from a re-analysis of the deposited data

Results flagged for a closer look

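In 317 groups of 4 to 6 libraries tested for a sample far from the others, 30 values stood apart; chance gives about 1 in 20 groups. At the axon stage several belonged to WSB set AD 11_3: control uncut library 4 had 2243 CPM of H19, 77.6 of Cdkn1c, 22.1 of Mirg and 162 of Impact, control cut library 4 had 59.8 CPM of Cdkn1c and 23.3 of Mirg, and ID-8 cut library 4 had 132 CPM of Igf2r and 142 of Impact. In WSB set I, control cut library 1 had 992 CPM of Peg10 and 41.6 of Magel2, and ID-8 cut library 1 had 547 CPM of Ndn. In WSB set 2, control cut library 2 had 184 CPM of Mest and 12.2 of Peg12, and in set 3 ID-8 cut library 3 had 754 CPM of Mest. In B6 set r1313_8d, ID-8 uncut library 2 had 1311 CPM of H19 and 403 of Dlk1, and control uncut library 2 had 315 CPM of Dlk1.

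At maturation, B6 ID-8 library 1 had 10.1 CPM of Mirg, B6 ID-8 library 2 had 12.9 CPM of Zim1 and 43.4 of Mest, and WSB ID-8 library 4 had 19.1 CPM of Zim1 and, as its lowest, 224 of Ndn. In progenitors, WSB control libraries held 665 CPM of Cdkn1c (library 1), 90.0 of Peg12 (library 3) and, as the lowest, 46.5 of Slc38a4 (library 5). WSB ID-8 library 6 had 11.4 CPM of Mirg and B6 ID-8 library 1 had 198 CPM of Plagl1. B6 control libraries held 146 CPM of Dlk1 (library 2), 89.5 of Peg12 (library 3) and 33.0 of Nap1l5 (library 4).

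The change from progenitor to maturation differed between WSB and B6 by a test of the difference for 7 members, on the log2 scale as WSB minus B6: H19 3.12, Igf2 2.58, Rtl1 -1.71, Dlk1 -1.5, Mkrn3 -1.37, Ndn -0.90 and Ube3a -0.81 (edgeR).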

How the results depend on the processing

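Counts of called members that moved by over 1.5 times were as follows. Within the second library series 9 members differed between strains in control progenitors. At maturation the strain count in control cultures was 13 with the culture experiment as a block, 14 within the first experiment and 17 within the second, and with ID-8 it was 18 within each. With 1 summed library per set the axon strain count was 2. For ID-8 in progenitors B6 gave 3 within the first series and 7 within the second, and WSB gave 3 without the filter, 1 without the library series and 0 within either series. For ID-8 at maturation B6 gave 8 with DESeq2, 10 with the block and 11 and 14 within experiments, and WSB gave 3 without the filter, 8 with the block and 8 and 9 within experiments. For ID-8 at the axon stage DESeq2 gave 1 and the set block 8 in each strain, and WSB less 1 library gave 12; cutting gave 7 in WSB with the block less 1 library. The share of all genes called can move with the fit too, as from 14.8% to 27.2% for the strains in control maturation cultures with the block. So these counts alone are no result about the members. The cause of these moves was not tested.

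Leaving out 1 replicate gave 4 to 8 strain calls at maturation in control and 7 to 12 with ID-8, 13 to 17 at the axon stage, 22 to 24 from progenitor to maturation in either strain, 23 to 24 in WSB and 27 to 29 in B6 to the axon stage, 5 to 8 for the strain difference in the maturation change, 1 to 3 in WSB and 2 to 5 in B6 for ID-8 at maturation, and 0 to 0 for ID-8 and for cutting at the axon stage. Reversed values were H19 between strains at the axon stage (0.14 without the library series, 0.15 with summed sets) and, with the series as a covariate, maturation against progenitor for Dlk1 in B6 (-0.11) and Mirg in B6 (-0.91) and WSB (-0.08). The covariate in that stage fit rests on 1 WSB axon library, control uncut library 4. Over single members, 1360 values kept their call, 144 lost it and 5 reversed. With a replicate left out 989 kept it, 111 lost it and 0 reversed.

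With the replicate block, pairing progenitor libraries by number, 23 members differed between strains in control and 26 with ID-8. In that fit ID-8 called 18 in B6 and 5 in WSB, and the difference in response called 0. The block moved no count of members by over 1.5 times, and no share of all genes is given for that fit. Depth limits Phlda2 and Ascl2, which were at or near 0 after the progenitor stage.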
